A study of Zea mays with 12 samples.

Results

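The drought response of the maize ear leaf was compared with that of the young ear, gene by gene. For each gene the fold change of drought over control in the ear was subtracted from that in the ear leaf, and the result on the log2 scale is called the difference below. A positive difference means that drought moved the gene upward more (or downward less) in the ear leaf, and a negative one that it did so in the ear. The members of the comparison were 8 of the 12 RNA-seq libraries of the series, and all genes listed in them entered, 24740 of which passed the filter on low counts and were tested.

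All plants were of the maize inbred line B104 and grew in field plots, and the organs came from watered controls or from plants whose soil was kept dry for 5 days. The upper ear was taken at the V9 stage, when spikelet primordia are forming, and the ear leaf, the leaf beside the ear, was taken at 5DAP (days after pollination). There were 4 groups of 2 libraries, control ear, drought ear, control ear leaf and drought ear leaf, and each library pooled organs of 4 plants. The drought was a separate 5-day treatment for each organ, at the V9 stage for the ear and after pollination for the ear leaf. Organ, stage and drought treatment thus differ together between the ear and the ear leaf, and their parts in a difference cannot be told apart.

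A mature leaf is a source organ that exports sucrose, and a young ear is a sink that imports it and builds meristems, spikelets and florets from it. Leaves of maize fix carbon by the C4 cycle, in which phosphoenolpyruvate carboxylase captures CO2 in the mesophyll and Rubisco refixes it in the bundle sheath. Water deficit raises abscisic acid (ABA), which acts through PYR/PYL receptors, clade A PP2C phosphatases and SnRK2 kinases on bZIP transcription factors, and it also slows cell division and brings on protective proteins such as dehydrins and chaperones.

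The libraries held between 3429219 and 5452598 rounded expected counts. Control ear leaf replicate 2 was the shallowest and stood apart from its partner. The chi-square of its counts against those of its partner averaged 3.98 per well-counted gene, where the other pairs gave 1.27 to 1.37. Markers of each organ followed the labels. The leaf genes pep1, ppdk1, me3 and the Rubisco small subunit genes GRMZM2G098520 and GRMZM2G113033 were at 379 to 9900 FPKM (fragments per kilobase of transcript, scaled to the depth of the library) in the ear leaf and at most 27 FPKM in the ear. The meristem gene kn1 was at 177 to 219 FPKM in the ear and at 1.01 to 2.09 FPKM in the ear leaf, and fea2, ra3, ub3 and zag1 were also higher in every ear library than in every ear leaf library. Of the endosperm genes, sh2 lay between 0.84 and 1.54 FPKM in all 8 libraries and bt2 between 6.64 and 21 FPKM. In such bulk samples, fewer cells of a type and less RNA per cell cannot be told apart.

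Drought moved 3550 genes by different amounts in the 2 organs, which was 14.3% of the genes tested (edgeR quasi-likelihood F test, Benjamini-Hochberg adjusted p under 0.001 and a difference of at least 1 on the log2 scale). At an adjusted p under 0.05 and with no fold criterion, 39.1% of the genes were called. The difference was larger in the ear leaf for 1577 genes (6.37%) and larger in the ear for 1973 genes (7.97%). Within the ear leaf, 4237 genes (17.1%) passed the same criteria, 8.15% of the genes tested rising and 8.97% falling. Within the ear, 1881 genes (7.6%) passed, 4.02% rising and 3.58% falling. Of the 505 genes called in both organs, 345 moved in the same direction and 160, or 31.7%, in opposite directions. Of the 3732 genes called in the ear leaf only, 1941 also had a called difference, as had 471 of the 1376 genes called in the ear only. Another 906 genes had a called difference without a call in either organ.

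The balance between the directions depended on the fit. Without control ear leaf replicate 2, 3375 genes were called, 1299 larger in the ear leaf and 2076 larger in the ear, and 3123 of the 3550 genes were among them. When libraries were scaled by their totals alone in place of TMM factors, 2140 genes were larger in the ear leaf and 1523 larger in the ear, 58.4% against 44.4% with TMM. The fits on FPKM turned the balance round as well, with 1829 genes larger in the ear leaf and 1353 larger in the ear on log2(FPKM + 1), and 1139 and 871 on log2(FPKM + 0.1). Scaling by totals moved the median difference over all genes from 0.02 to 0.19. Each of the 3550 genes kept the sign of its difference in all 17 other fits in which it was tested, those without 1 library included.

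**Figure D1:**
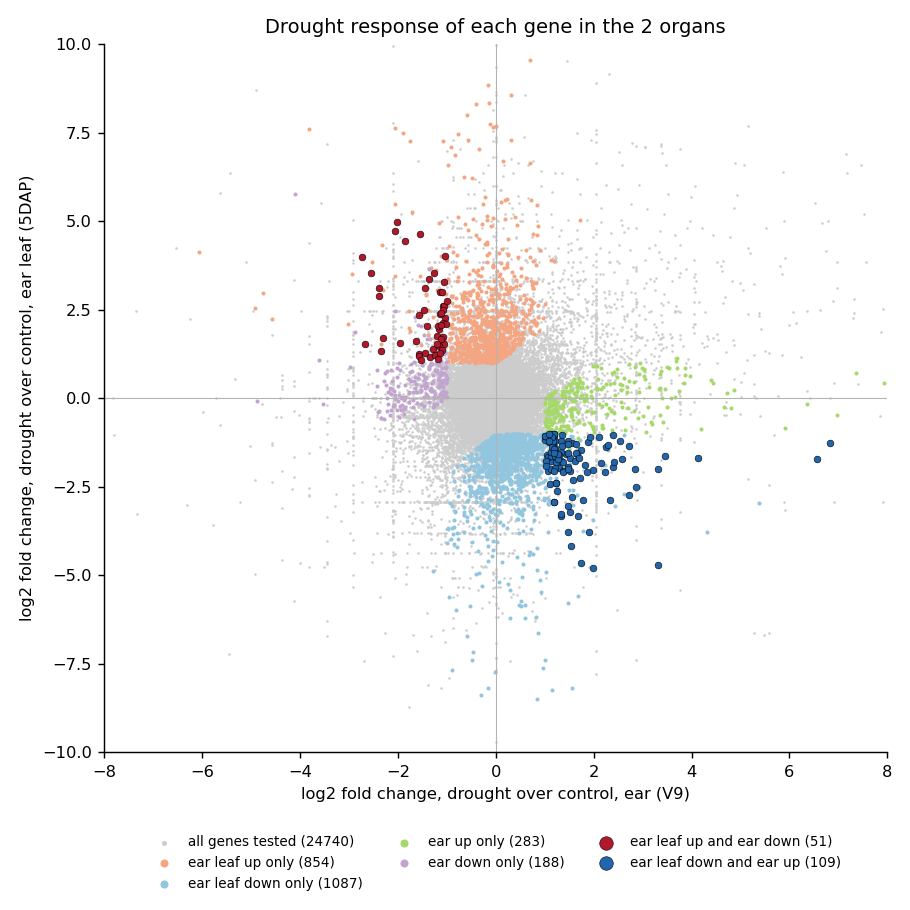
Log2 fold change of drought over control, ear on the x axis and ear leaf on the y axis, for each of the 24740 genes tested (6 lie outside the axes). Coloured points are genes with a called difference, by the organ in which drought passed the test; the 51 dark red genes rose in the ear leaf and fell in the ear, and the 109 dark blue genes did the opposite.

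The genes that moved in opposite directions were few, with median differences of 3.51 and -3.20. They had to move by at least 1 on the log2 scale in each organ. Other classes needed only a difference of at least 1, so larger medians here follow from the definition. There were 51 genes (0.206% of those tested) that rose in the ear leaf and fell in the ear, and their median log2 fold changes were 2.10 and -1.25. Without control ear replicate 2 this count fell to 27, and without control ear leaf replicate 2 it was 42. There were 109 genes (0.441%) with a fall in the ear leaf and a rise in the ear, and medians of -1.70 and 1.38. All 51 and all 109 kept a called difference without control ear leaf replicate 2.

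The stay-green gene SGR1 (GRMZM2G103881), which starts chlorophyll breakdown in senescing leaves, was at 11.2 and 9.16 FPKM in the control ear leaf and at 132 and 124 FPKM in the drought ear leaf. In the ear it went from 4.57 and 4.06 FPKM to 2.05 and 1.38 FPKM. It rose in one organ and fell in the other (difference 4.72 ± 0.29 SE, adjusted p = 3.8e-12). HIT2 (GRMZM2G126765) was at 2.08 and 1.74 FPKM in the control ear leaf and at 77.2 and 71.3 FPKM under drought. In the ear it was at 11.4 and 11.5 FPKM in the controls and at 3 and 3.03 FPKM under drought, so that the order of the organs was turned round by drought (difference 6.99 ± 0.37). The gene mfsd1 (GRMZM2G161310) also rose in the ear leaf, from 8.33 and 8.28 FPKM to 74 and 75.3 FPKM. It fell in the ear from 6.5 and 5.83 FPKM to 1.33 and 1.18 FPKM (difference 5.27 ± 0.33). Unlike HIT2, mfsd1 was higher in the ear leaf than in the ear in both conditions.

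These 109 genes were mostly leaf genes by level. Of the 109, 105 were higher in the control ear leaf than in the control ear, with a median log2 ratio of 5.41 between the organs, and under drought 84 were still higher in the ear leaf and the median was 1.86. Over all 24740 genes, 11759 were higher in the control ear leaf and the median ratio was -0.10. Of the 51 genes with the opposite pattern, 11 were higher in the ear leaf without drought and 37 with it. These ratios and the drought fold changes share their libraries and are not independent of each other.

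Among the gene lists, those of the photosynthetic apparatus held the most genes of this kind. Most lists were taken from the study's supplementary tables, whose genes the study chose on these same libraries, so that the direction of such a list is not independent evidence. The lists of C4, Rubisco, meristem, clock and sucrose transport genes came from textbook knowledge. All 19 tested light-harvesting antenna genes fell in the ear leaf (8.97% of all genes did), their median log2 fold change being -2.72, and 10 of them rose in the ear (4.02% of all genes), where the median was 1.17. The difference was larger in the ear for 18 of the 19, with a median of -3.77, against 7.97% and a median of 0.02 over all genes. It was larger in the ear for 16 of 18 photosystem II genes (median -2.85), 17 of 19 photosystem I genes (median -2.91) and 12 of 15 genes of electron transport and the ATP synthase (median -2.11). None of these counts changed without control ear leaf replicate 2. The antenna genes belong to a family of near-identical copies, and the split of reads between copies is uncertain.

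The light-harvesting chlorophyll a/b binding protein gene cab-m1 (GRMZM2G351977) was at 1100 FPKM in both control ear leaf libraries and at 52.6 and 53.1 FPKM under drought. In the ear it rose from 5.49 and 5.63 FPKM to 19.3 and 21.2 FPKM (difference -6.40 ± 0.14, adjusted p = 2.0e-20). Even the raised ear level stayed under the lowered ear leaf level. A second antenna gene, cab-m9 (GRMZM2G155216), went from 2870 and 2810 FPKM to 256 and 244 FPKM in the ear leaf and from 19.5 and 18.4 FPKM to 96.9 and 103 FPKM in the ear (difference -5.67 ± 0.07). A homolog of PSBQ (GRMZM5G804323), a subunit of the oxygen-evolving complex, was at 578 and 598 FPKM in the control ear leaf and at 23.1 and 27.4 FPKM under drought. Its ear level rose from 7.82 and 9.93 FPKM to 34.2 and 41.2 FPKM, so that under drought the ear was above the ear leaf (difference -6.80 ± 0.16).

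Homologs of PSAO (GRMZM2G001653) and PSAF (GRMZM2G085646) of photosystem I, PSB27 (GRMZM2G056424) of photosystem II and ATPD (GRMZM2G401040) of the chloroplast ATP synthase also moved in opposite directions, with differences from -5.22 to -3.39. A second PSBQ homolog (GRMZM2G058070) had 0 counts in both control ear libraries and 94 and 92 counts in the drought ear libraries, at least 29.4-fold higher against a floor of 3 counts per library. One photosystem gene went the other way. A homolog of PSB29, also called THF1 (GRMZM2G033493), was at 73.2 and 60 FPKM in the control ear leaf and at 262 and 275 FPKM under drought, and its ear levels of 8.19, 9.98, 7.18 and 7.55 FPKM did not pass the test (difference 2.15 ± 0.19).

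Of 4 genes of the C4 cycle, 3 had a difference larger in the ear (7.97% of all genes) and 1 did not pass. The gene pep1 (GRMZM2G083841), which encodes the C4 phosphoenolpyruvate carboxylase, fell from 5720 and 5650 FPKM to 379 and 383 FPKM in the ear leaf and lay between 8.92 and 10.3 FPKM in the ear (difference -4.03 ± 0.06, adjusted p = 1.9e-23). It took 1.9% and 1.88% of all counts of the control ear leaf libraries and 0.126% and 0.127% of those of the drought ear leaf libraries. The gene ppdk1 (GRMZM2G306345), whose product regenerates phosphoenolpyruvate, fell from 9900 and 9780 FPKM to 2560 and 2510 FPKM in the ear leaf (difference -1.81 ± 0.04). The malate dehydrogenase gene mdh6 (GRMZM2G129513) fell from 688 and 675 FPKM to 280 and 284 FPKM in the ear leaf and rose from 7.81 and 8.22 FPKM to 26.8 FPKM in both libraries in the ear (difference -3.19 ± 0.09). The NADP-malic enzyme gene me3 (GRMZM2G085019) was at 1420 FPKM in both control ear leaf libraries and at 1260 and 1250 FPKM under drought, and its difference of -0.30 ± 0.08 did not pass (adjusted p = 0.1). Of the 4 genes of Rubisco small subunits and Rubisco activase, 3 had a difference larger in the ear, between -2.16 and -1.89, and the fourth, rca3, was at or near 0 in the ear and was not called.

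Together, 80 nuclear genes of the photosynthesis, C4 and Rubisco lists took 14% and 13.8% of the counts in the control ear leaf libraries and 3.77% and 3.76% in the drought ear leaf libraries. In the ear their share was 0.115% and 0.12% in the controls and 0.234% and 0.236% under drought. The 2 control ear leaf libraries were alike in this sum. They were unlike in photosynthesis genes whose best Arabidopsis match is a plastid gene. These 14 genes held 956 counts in control ear leaf replicate 1 and 17640 in replicate 2, and between 494 and 558 in the drought ear leaf. The gene GRMZM2G427369, annotated by its best hit as the photosystem II reaction center protein A, had 92 counts in replicate 1 and 5568 in replicate 2. The median difference of the 11 tested members was -4.17 with all libraries, -0.12 without control ear leaf replicate 2 and -5.30 without replicate 1, and 2 members were called, GRMZM2G448174 and GRMZM2G117572, both of which lost the call without either control ear library. GRMZM2G117572 lost it also without either drought ear leaf library. No direction is given for this group.

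**Figure D2:**
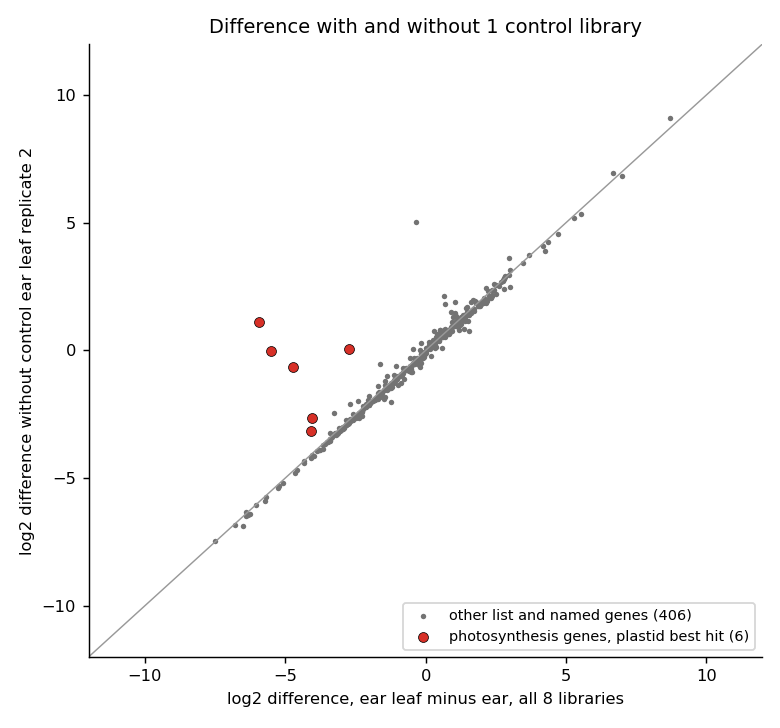
Difference with all 8 libraries (x axis) and without control ear leaf replicate 2 (y axis), log2 scale, for 412 list and named genes without a group at 3 or fewer counts in both libraries; the line marks equal values. The 6 genes that match plastid photosynthesis genes lie off the line. The other 406 genes moved by a median of 0.10, 12 of them by over 0.5 and the one that moved most by 5.40. Another 158 list and named genes were not drawn.

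Most called genes changed in the ear leaf only. There were 854 that rose and 1087 that fell there without a call in the ear. The first 3 risers described had the largest differences among those with a name and over 3 counts in every library. The asparagine synthetase gene asn3 (GRMZM2G053669), whose product stores and carries nitrogen as asparagine, was at 2.7 and 5.31 FPKM in the control ear leaf and at 1450 and 1420 FPKM in the drought ear leaf. In the ear it was at 9.46 and 8.74 FPKM in the controls and at 7.5 and 7.33 FPKM under drought (difference 8.70 ± 0.18, adjusted p = 9.1e-21). The dehydrin gene dhn2 (GRMZM2G373522) was at 3.85 and 5.87 FPKM in the control ear leaf and at 394 and 402 FPKM under drought, whereas the ear held 182 and 161 FPKM in the controls and 130 and 135 FPKM under drought. The ear thus carried a high dhn2 level in both conditions, and the ear leaf only under drought (difference 6.69 ± 0.18). A homolog of the osmotin gene OSM34 (GRMZM2G092474) rose from 6.86 and 5.45 FPKM to 258 and 257 FPKM in the ear leaf and lay between 0.7 and 1.68 FPKM in the ear (difference 5.54 ± 0.49).

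Other nitrogen genes divided. Of 12 tested, 3 had a difference larger in the ear leaf (6.37% of all genes) and 3 larger in the ear (7.97%). The cytosolic glutamine synthetase gene gln2 (GRMZM2G024104) rose in both organs, from 19.8 and 21.5 FPKM to 137 and 131 FPKM in the ear leaf and from 16.1 and 17.2 FPKM to 48.2 and 45.5 FPKM in the ear (difference 1.06 ± 0.13, or 0.95 and no longer called without control ear leaf replicate 1). The gene gln1 (GRMZM2G098290), whose best Arabidopsis hit is the plastid enzyme GLN2, fell in the ear leaf, from 39.7 and 36 FPKM to 18.4 and 18 FPKM, and was between 14.9 and 16.9 FPKM in the ear (difference -1.27 ± 0.13). A homolog of the nitrate transporter NRT1 (GRMZM2G161459) fell in both organs and more in the ear leaf, from 12.3 and 11.8 FPKM to 0.59 and 0.17 FPKM (difference -3.41 ± 0.59). Osmotins were as uneven. The pathogenesis-related gene pr5 (GRMZM2G402631) fell in the ear leaf from 1240 and 1210 FPKM to 90.7 and 96.6 FPKM and lay between 1.17 and 1.39 FPKM in the ear (difference -3.81 ± 0.34), while sip1 (GRMZM2G374971) rose from 14 and 17.1 FPKM to 97.3 and 99.1 FPKM (difference 2.78 ± 0.38, not called without control ear replicate 1).

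Type-A response regulators, which are induced by cytokinin and dampen its signal, fell in the ear leaf. Of 8 tested, 6 fell in the ear leaf (8.97% of all genes did), none fell in the ear and 1 rose there, and 7 had a difference larger in the ear (7.97% of all genes). The median difference was -5.15, or -3.85 with groups at 3 or fewer counts set to that floor. RR7 (GRMZM2G096171) was at 34.6 and 30.9 FPKM in the control ear leaf and at 1.42 and 0.48 FPKM under drought, and in the ear at 9.24 and 9.23 FPKM in the controls and at 16.1 and 12.9 FPKM under drought (difference -6.24 ± 0.44, adjusted p = 2.1e-13). The gene crr2 (GRMZM2G392101) fell from 21 and 26.8 FPKM to 0.46 and 0.79 FPKM in the ear leaf (difference -6.40 ± 0.65). For crr1 (GRMZM2G040736) the drought ear leaf libraries held 0 counts against 32 and 15 in the controls, at least 11-fold lower, and its call was lost without any one of 7 libraries, control ear leaf replicate 2 being the exception. RR5 (GRMZM2G156019) was the member that rose in the ear, from 7.14 and 8.13 FPKM to 21.6 and 22.2 FPKM, and its ear leaf values of 23.3 and 24.1 FPKM in the controls and 14.6 and 14.7 FPKM under drought did not reach the fold criterion (difference -2.38 ± 0.19).

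The cytokinin receptors upstream of these regulators did not move as one. HK1 (GRMZM2G151223) rose in the ear leaf from 3.03 and 2.52 FPKM to 20.7 and 20.5 FPKM (difference 2.17 ± 0.15). HK1b2 (GRMZM5G833140) fell there from 54 and 49.5 FPKM to 9.88 and 9.69 FPKM (difference -2.32 ± 0.13), and HK1b1 (GRMZM2G155767) fell from 18.6 and 17.9 FPKM to 4.63 and 4.01 FPKM (difference -1.69 ± 0.18). None of the 3 was called in the ear, where HK1 and HK1b1, with log2 fold changes of 0.42 and -0.66, missed only the fold criterion.

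An aquaporin gene and the sucrose synthase genes are described next. The plasma membrane aquaporin gene pip2-5 (GRMZM2G178693) was at 130 and 145 FPKM in the control ear leaf and at 1.38 and 2.03 FPKM under drought. In the ear it lay between 0.64 and 1.96 FPKM (difference -7.49 ± 0.54, adjusted p = 2.0e-10). The sucrose synthase gene sh1 (GRMZM2G089713), whose product splits sucrose for use in the cell, rose in the ear leaf from 43.6 and 42 FPKM to 552 and 551 FPKM, and was at 273 and 267 FPKM in the control ear and at 171 and 166 FPKM in the drought ear (difference 4.19 ± 0.07). The other way round, sus2 (GRMZM2G318780) rose more in the ear, from 5.07 and 5.23 FPKM to 59.4 and 63.9 FPKM, than in the ear leaf, where it went from 31.4 and 38.8 FPKM to 87.8 and 85.1 FPKM (difference -2.82 ± 0.17). Another sucrose synthase gene, sus1 (GRMZM2G152908), was at 452 and 449 FPKM in the control ear, 277 and 281 FPKM in the drought ear, 18.4 and 20.2 FPKM in the control ear leaf and 14.3 and 14.7 FPKM in the drought ear leaf. Its fold changes were close in the organs, and the difference was 0.13 ± 0.08 (adjusted p = 0.24).

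Of the 4 invertase genes listed, which split sucrose into glucose and fructose, 3 rose in the ear leaf (8.15% of all genes did). The other, mn1, had at most 7 counts in any library and was not tested. The vacuolar invertase gene ivr2 (GRMZM2G089836) rose in the ear leaf from 17.5 and 17.6 FPKM to 149 and 148 FPKM, and in the ear it was at 39.6 and 38.5 FPKM in the controls and 25.8 and 26.9 FPKM under drought (difference 3.47 ± 0.11). Its relative ivr1 (GRMZM2G394450) rose in the ear leaf from 5.79 and 4.95 FPKM to 15.4 and 13 FPKM and fell in the ear from 6.57 and 6.91 FPKM to 3.8 and 2.53 FPKM (difference 2.29 ± 0.27). The cell wall invertase gene incw1 (GRMZM2G139300) rose in the ear leaf from 51.4 and 55.5 FPKM to 228 and 236 FPKM, but its difference of 1.31 ± 0.31 did not pass (adjusted p = 0.0078), with 0.69 to 1.68 FPKM in the ear. Trehalose metabolism makes and removes the sugar signal trehalose-6-phosphate. Of its 13 listed genes, 6 had a difference larger in the ear leaf (6.37% of all genes) and 4 larger in the ear (7.97%). TPS7 (GRMZM2G019183) rose in the ear leaf from 2.4 and 2.49 FPKM to 25.3 and 25.4 FPKM (difference 2.74 ± 0.16), and a homolog of the synthase TPS1 (GRMZM2G001304) fell there from 21 and 23.6 FPKM to 0.82 and 0.67 FPKM (difference -6.05 ± 0.37).

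**Figure D3:**
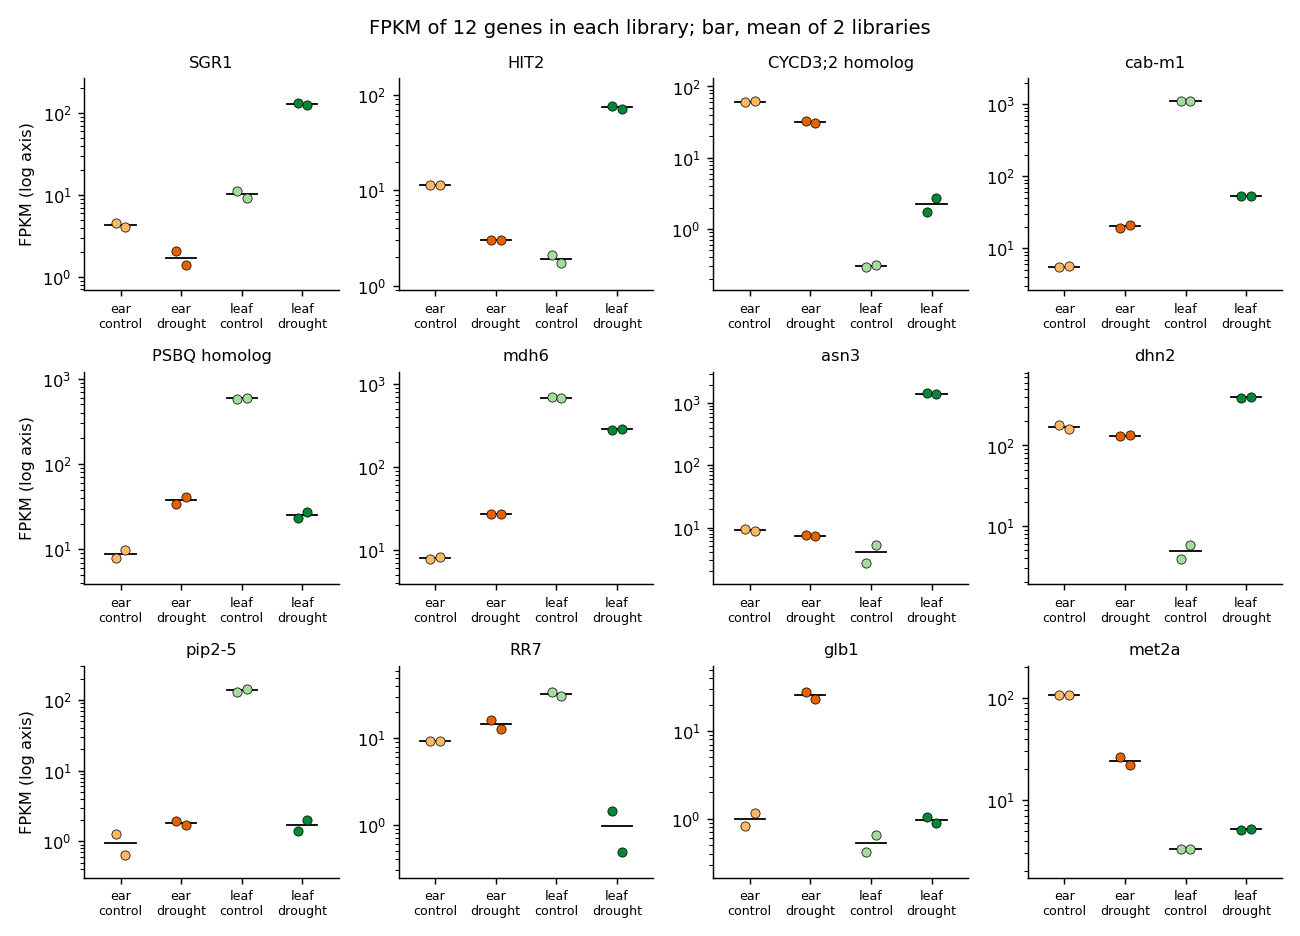
FPKM on a log axis for 12 genes in each of the 8 libraries (points, 2 per group) with the mean of the pair (bar). The first 3 genes rose in the ear leaf and fell in the ear, the next 3 did the opposite, asn3 and dhn2 rose and pip2-5 and RR7 fell in the ear leaf only, and glb1 rose and met2a fell in the ear only.

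Histone genes, whose transcripts accumulate as cells copy their DNA, set the ear apart in the falling direction. Of the 30 tested, 29 fell in the ear (3.58% of all genes did), where the median log2 fold change was -1.94, and none fell in the ear leaf, where 2 rose and the median was -0.19. The difference was larger in the ear leaf for 21 (17 without control ear leaf replicate 2) and larger in the ear for none, with a median of 1.72. The list took 1.68% and 1.75% of the counts in the control ear and 0.685% and 0.698% in the drought ear, but 0.0522% to 0.0815% in the ear leaf libraries. A histone H4 gene (GRMZM2G349651) fell in the ear from 278 and 274 FPKM to 49.9 and 78.5 FPKM and rose in the ear leaf from 5.82 and 6.55 FPKM to 22.1 and 21.5 FPKM (difference 3.67 ± 0.31, adjusted p = 2.6e-10). A homolog of the linker histone gene HISTONE 1.2 (GRMZM2G164020) fell in the ear from 956 and 999 FPKM to 314 and 321 FPKM, while its ear leaf values of 34.9 and 39.6 FPKM in the controls and 89.7 and 81 FPKM under drought missed the fold criterion (difference 2.69 ± 0.09). Histone genes are near-identical copies, and their reads may be split unevenly among them. One member of the list, a homolog of the linker histone gene HIS1-3 (GRMZM2G069911), had 8125 and 8158 counts in the control ear and 11723 and 11508 in the drought ear and was not called.

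Cyclins and mitotic kinases also fell in the ear, in 16 of 20 cases (3.58% of all genes did). For 1 of them a difference was called (14.3% of all genes), and 11 of the 20 had a group at 3 or fewer counts in both libraries. A homolog of CYCD3;2 (GRMZM2G107377), a D-type cyclin that promotes entry into the cell cycle in Arabidopsis, fell in the ear from 59.9 and 62 FPKM to 33 and 30.4 FPKM. In the ear leaf it held 3 and 2 counts in the controls and 18 and 28 counts under drought, and both organs passed the test (difference 3.66 ± 0.62). The chromomethylase gene met2a (GRMZM2G025592), which maintains DNA methylation through replication, fell in the ear from 108 and 106 FPKM to 26.4 and 21.9 FPKM and was between 3.29 and 5.21 FPKM in the ear leaf (difference 2.61 ± 0.17). Ribosomal protein genes gave a contrast to the histones. Of 24 tested, 1 had a called difference (14.3% of all genes), and the medians were -0.27 in the ear leaf and -0.29 in the ear.

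Of 18 expansin genes, 4 rose and 2 fell in the ear, 4 rose in the ear leaf, and 2 differences were called in each direction (1 and 0 without control ear leaf replicate 1). Over all genes, 4.02% rose and 3.58% fell in the ear and 8.15% rose in the ear leaf. A difference was called for 6.37% in the direction of the ear leaf and for 7.97% in that of the ear. A cell wall gene outside the expansin list, a homolog of XTH28 (GRMZM2G319798), an enzyme that cuts and rejoins xyloglucan, fell in the ear from 141 and 157 FPKM to 35.3 and 30.6 FPKM and was between 1.18 and 2.15 FPKM in the ear leaf (difference 2.76 ± 0.42, adjusted p = 7.4e-06). The beta-expansin gene expB8 (GRMZM2G013002), 1 of the 2 expansin genes that fell in the ear, went down there from 110 FPKM in both libraries to 63.9 and 53.5 FPKM and up in the ear leaf from 10.2 and 9.88 FPKM to 129 and 125 FPKM (difference 4.35 ± 0.14). None of 20 genes of inflorescence meristems and branching had a called difference (14.3% of all genes did), although 5 of them fell in the ear. A group at 3 or fewer counts was present in 10 of them.

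More chaperone genes passed the test in the ear than in the ear leaf. Of 26 tested small heat shock protein genes, 18 rose in the ear (4.02% of all genes) and 5 in the ear leaf (8.15%). The difference was larger in the ear for 7 (7.97%) and larger in the ear leaf for 1 (6.37%). The median difference was -1.16, and -1.72 with groups at 3 or fewer counts set to that floor, which 11 of the genes had. A homolog of the plastid chaperone HSP21 (GRMZM2G080724) rose in the ear from 5.02 and 4.93 FPKM to 53.8 and 54.6 FPKM, up to the level that the ear leaf held without drought, 57.2 and 56.8 FPKM. In the drought ear leaf it was at 82.5 and 82.1 FPKM (difference -3.08 ± 0.18, adjusted p = 1.9e-13). Of 16 HSP70, HSP90 and HSP101 genes, 7 had a difference larger in the ear (7.97% of all genes) and 4 larger in the ear leaf (6.37%). Among the 7 were a homolog of HSC70-1 (GRMZM2G366532, -3.65 ± 0.20) and hsp101 (GRMZM2G360681, -2.62 ± 0.10). The HSP90 gene hsp82 (GRMZM5G833699) rose in the ear from 0.33 and 0.07 FPKM to 18.7 and 17.9 FPKM and was between 0.91 and 1.72 FPKM in the ear leaf (difference -6.52 ± 0.69). A second HSP90 gene moved otherwise. HSP90-1 (GRMZM2G024668) was at 497 and 505 FPKM in the control ear, 281 and 287 FPKM in the drought ear, 324 and 310 FPKM in the control ear leaf and 736 and 735 FPKM in the drought ear leaf. Neither organ reached the fold criterion alone, and the difference did (1.85 ± 0.06). The endoplasmic reticulum chaperone genes bip1 (GRMZM2G114793) and bip2 (GRMZM2G415007) likewise had differences larger in the ear leaf, 1.53 ± 0.10 and 1.15 ± 0.12, with bip1 falling in the ear from 128 and 121 FPKM to 66.3 and 66.7 FPKM.

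Genes that rose in the ear only, 283 with a called difference, included storage and membrane proteins. The embryo storage globulin gene glb1 (GRMZM2G067919) rose from 0.82 and 1.16 FPKM to 27.8 and 23.1 FPKM in the ear and lay between 0.42 and 1.05 FPKM in the ear leaf (difference -3.99 ± 0.59, adjusted p = 4.3e-05). Without control ear leaf replicate 1 the adjusted p of glb1 was 0.0064 and the call was lost. A remorin gene (GRMZM2G004511), of a family of plasma membrane proteins, rose in the ear from 7.07 and 7.32 FPKM to 55.3 and 53.9 FPKM, while the ear leaf held 430 and 410 FPKM in the controls and 393 and 391 FPKM under drought (difference -3.19 ± 0.11). Neither gene was called in the ear leaf, where glb1 was low and the remorin gene high in all libraries. The log2 fold change of the remorin gene there, -0.37, missed only the fold criterion.

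Among the genes of ABA signalling, the PP2C genes rose in both organs. Of 13 clade A PP2C genes, which encode phosphatases that shut the pathway off, 12 rose in the ear (4.02% of all genes) and 10 did so in the ear leaf (8.15%). A difference was called for 1 of them in each direction, a share near that of all genes (14.3%). PP2C12 (GRMZM5G818101) rose more in the ear leaf, from 3.06 and 3.97 FPKM to 76.6 and 78.6 FPKM, than in the ear, from 19.3 and 15.6 FPKM to 61.7 and 59.3 FPKM (difference 2.51 ± 0.22, adjusted p = 5.4e-10). PP2C13 (GRMZM2G159811) rose more in the ear, from 1.11 and 0.75 FPKM to 29.3 and 29.4 FPKM, than in the ear leaf, from 25.7 and 28.8 FPKM to 105 and 97.2 FPKM (difference -3.23 ± 0.28). Of 8 ABA receptor genes, 3 rose (8.15% of all genes) and 1 fell (8.97%) in the ear leaf, and none was called in the ear. A difference was called for 1 of the receptor genes, again near the share of all genes. PYL10 (GRMZM2G165567) rose in the ear leaf from 18.6 and 13.7 FPKM to 82.5 and 81.8 FPKM and lay between 27.4 and 32.2 FPKM in the ear (difference 2.38 ± 0.17). LEA proteins and dehydrins, with medians of 3.22 in the ear leaf and 3.42 in the ear, had 1 called difference in each direction among 16 tested, near the share of all genes too, and 9 of the 16 had a group at 3 or fewer counts.

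Further down the pathway the differences went both ways, as they did over all genes (6.37% larger in the ear leaf, 7.97% larger in the ear). A homolog of the kinase gene SNRK2-10 (GRMZM2G000278) rose in the ear leaf from 23.3 and 18.5 FPKM to 78.3 and 80.6 FPKM and was between 30.1 and 34.2 FPKM in the ear (difference 1.91 ± 0.14). A homolog of OST1 (GRMZM2G066867), the kinase of the ABA response of guard cells in Arabidopsis, was at 40.8 FPKM in both control ear libraries and at 84 and 87.4 FPKM in the drought ear, just under the fold criterion, against 5.13 and 5.85 FPKM and 4.57 and 3.64 FPKM in the control and drought ear leaf (difference -1.65 ± 0.19). Among the ABF-type bZIP genes, 1 of 7 had a difference larger in the ear leaf, bZip37 (GRMZM5G858197) with 1.49 ± 0.25 (not called without either control ear library), and 2 larger in the ear, of which a homolog of ABF2 (GRMZM2G479760) rose in the ear from 1.44 and 1.33 FPKM to 12.1 and 11.1 FPKM (difference -1.97 ± 0.30). A homolog of ABAR (GRMZM2G323024), the magnesium chelatase subunit that acts in chlorophyll synthesis, fell in the ear leaf from 280 and 265 FPKM to 44.4 and 45.3 FPKM and rose in the ear from 3.04 and 3.5 FPKM to 11.6 and 12.7 FPKM (difference -4.67 ± 0.11). It had the pattern of the antenna genes. Of the 12 genes of ABA synthesis and response in its list, 8 rose in the ear leaf (8.15% of all genes). Only this gene, 1 of the 12, fell there (8.97%). In the ear 9 of the 12 rose (4.02%) and 0 fell (3.58%).

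Transcription factors of several families held members of both directions. Over all genes, 6.37% had a difference larger in the ear leaf and 7.97% one larger in the ear. Of 22 WRKY genes, 4 had a difference larger in the ear leaf and 1 larger in the ear. Of 20 EIN3 and ERF genes, the counts were 1 and 6, or 0 and 7 without control ear leaf replicate 2 and 2 and 7 without control ear leaf replicate 1. The dehydration-responsive factor gene DBP2 (GRMZM2G055204) fell in the ear leaf from 244 and 241 FPKM to 74 and 78.6 FPKM and rose in the ear from 19.7 and 16.2 FPKM to 54 and 53.3 FPKM (difference -3.42 ± 0.10, adjusted p = 1.6e-17). Among 15 NAC genes, 2 and 4 were called, with 2 in place of 4 without control ear leaf replicate 1 and 0 when libraries were scaled by their totals. A homolog of NAC047 (GRMZM2G134073) fell in the ear from 10.5 and 9.9 FPKM to 3.74 and 4.48 FPKM and was at 30.2 and 26.6 FPKM in the control and 68.3 and 63.8 FPKM in the drought ear leaf (difference 2.27 ± 0.22). Of 9 HD-Zip I genes, 1 and 3 were called, and hdz10 (GRMZM2G041127) fell in the ear leaf from 10.2 and 8.1 FPKM to 1.28 and 1.78 FPKM with 36.4 and 41 FPKM in the control ear and 76.8 and 73.7 FPKM in the drought ear (difference -3.67 ± 0.27). Of 13 Aux/IAA genes, repressors of the auxin response, 3 and 4 were called, with 1 in place of 3 without control ear leaf replicate 1. A homolog of IAA3 (GRMZM2G115357) rose in the ear from 19.7 and 20.1 FPKM to 138 and 140 FPKM and was between 8.89 and 17.4 FPKM in the ear leaf (difference -2.36 ± 0.20), and AUX10 (GRMZM2G057067) rose in the ear leaf from 21.2 and 15.8 FPKM to 96.6 and 93.8 FPKM (difference 2.37 ± 0.23). Both gigantea genes of the circadian clock, GRMZM2G107101 and gigz1b (GRMZM5G844173), fell in the ear, with differences of 1.49 ± 0.11 and 2.01 ± 0.13. In the ear leaf gigz1b went from 21.2 and 19.9 FPKM to 40.8 and 44.2 FPKM and missed only the fold criterion. GRMZM2G107101 did not pass there. The hour of sampling is not given in the sources used here.

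**Figure D4:**
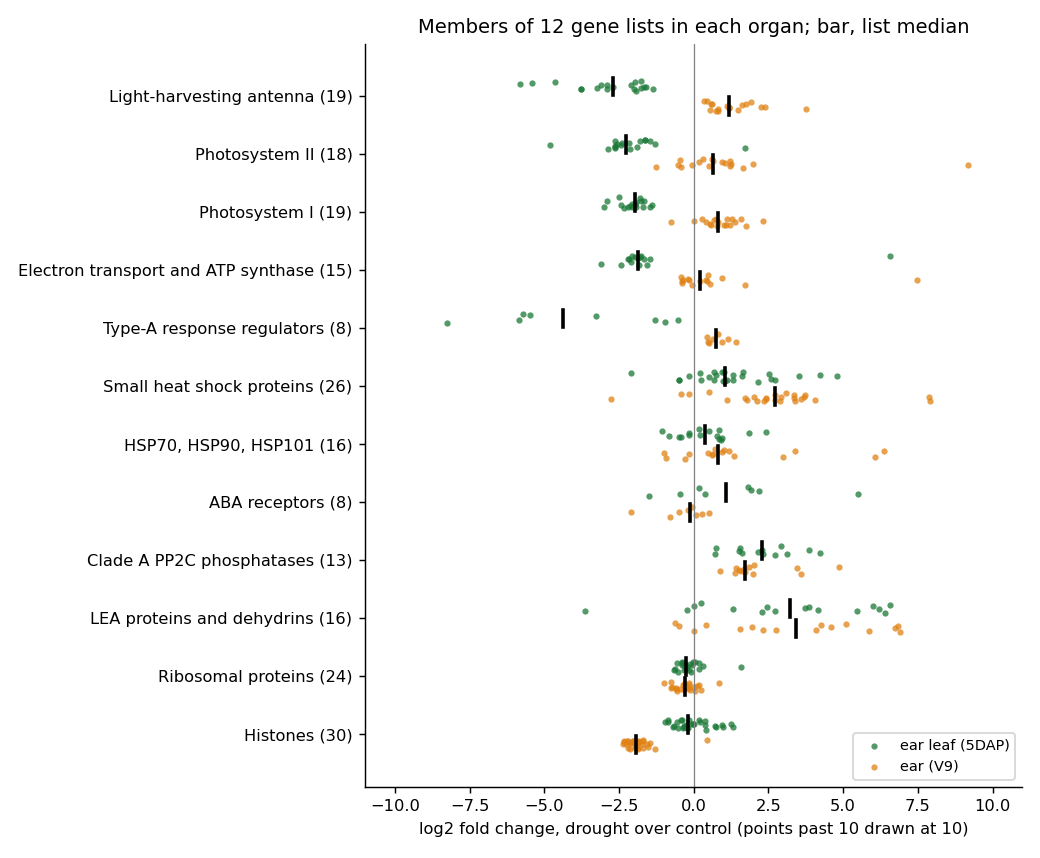
Log2 fold change of drought over control for the tested members of 12 gene lists (number in brackets) in the ear leaf (green) and the ear (orange), with the list median as a bar. The medians of the 4 photosynthesis lists lie below 0 in the ear leaf and above 0 in the ear, that of the histones lies at -1.94 in the ear, against -0.19 in the ear leaf, and those of the PP2C and LEA lists lie above 0 in both organs.

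A part of the drought response was shared. Of the 345 genes that moved in the same direction in both organs, 273 had no called difference, 214 of them rising and 59 falling. All 3 genes of the raffinose list rose in both organs, and 1 of them had a called difference. AGA1 (GRMZM2G340656), whose best Arabidopsis hit is the alkaline alpha-galactosidase SIP2, rose from 206 and 218 FPKM to 5150 and 5190 FPKM in the ear leaf and from 27.5 and 29.6 FPKM to 298 and 297 FPKM in the ear, and its difference of 1.07 ± 0.04 was just past the criterion. In the drought ear leaf it alone took 1.43% and 1.44% of all counts. The galactinol synthase gene gols2 (GRMZM5G872256) rose from 369 and 375 FPKM to 1260 and 1270 FPKM in the ear leaf and from 3.39 and 2.5 FPKM to 17.7 and 14.6 FPKM in the ear, and its difference of -0.87 ± 0.15 was not called, although without drought ear replicate 2 it was -1.01 and passed.

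The called genes also redistributed the libraries. The 1973 genes with a difference larger in the ear took 42.2% and 41.8% of the counts in the control ear leaf and 17% in both drought ear leaf libraries, against 6.9% and 6.92% in the control ear and 11.1% in both drought ear libraries. The 1577 genes with a difference larger in the ear leaf took 4.47% and 4.43% in the control ear leaf, 17.5% in both drought ear leaf libraries, 13.9% and 14.1% in the control ear and 8.98% in both drought ear libraries. These genes were called on the same counts, and the shares describe them without a further test.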

How the data were processed

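RNA was extracted with Trizol per the labels and with a detergent buffer, phenol and chloroform per the methods of the study, and which holds was not settled; mRNA libraries were sequenced on an Illumina HiSeq. The aligner, the counting tool, the genome build and whether counting used strand are not given in the sources used here. The authors deposited, for each library, expected counts per gene, which need not be whole, and FPKM. Expected counts were rounded and fitted in R 4.3.3 with edgeR 4.0.16 (TMM factors, filterByExpr, glmQLFit and glmQLFTest) as 4 group means over 8 libraries, and p-values were adjusted by Benjamini-Hochberg over all 24740 genes tested. A difference was called at an adjusted p under 0.001 and at least 1 on the log2 scale, the criteria of the study. Values after ± are standard errors of the fit, scaled by the moderated spread of each gene. They can fall below the error of counting alone, and then understate the uncertainty. They also need not match the F test, as for me3 (-0.30 ± 0.08, adjusted p = 0.1). Calls rest on the F test and not on these values. Deposited FPKM values are printed per library as levels, and log2(FPKM + 1) and log2(FPKM + 0.1) served in limma 3.58.1 as alternatives. The method was tested on simulated data.

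The biological repeats of the study pooled different plants. The p-values rest on the spread between the 2 libraries of each group, pooled over the 4 groups (4 residual degrees of freedom). That spread was moderated over genes (17.9 prior degrees of freedom). Beyond counting error, the coefficient of variation within a pair was 0.0308 in control ear, 0.0234 in drought ear and 0.0183 in drought ear leaf. In control ear leaf it was 0.111. The p-values do not measure the spread between single plants. A total of 3429219 counts put 3 counts, the floor used here, at 1.2 CPM in the shallowest library and at 0.449 to 0.774 in the others; floors cover counting error only. Lists came from the supplementary tables of the study or, for C4, Rubisco, meristem, MADS-box, clock and sucrose transport genes, from textbook knowledge. Members, lists and tests were chosen with earlier results of these data known. Named were, in each of 6 classes, the 3 genes with the largest difference that had a name, over 3 counts in every library and no overlap in the organs of the class; up to 3 called members per list and direction, and all members of lists of 8 or fewer; and marker genes. Of these the ones described were those with the clearest values, and the linker histone GRMZM2G069911, the plastid gene GRMZM2G427369 and the uncalled genes set beside called ones were chosen after their values were seen. Names came from the supplementary tables (best Arabidopsis hits) or a reference table that held 18528 of 34423 IDs; 13 textbook members without a name there were left out. Lists by reference description could not be built, since that table holds none, and no sequences were used.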

Additional observations from a re-analysis of the deposited data

Results flagged for a closer look

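Drought acted differently in the 2 organs, by the test of the difference itself, for 3550 genes, of which 51 rose in the ear leaf and fell in the ear and 109 the reverse. Among the described genes, those that passed the test in opposite directions are given here with their differences on the log2 scale. Those that rose in the ear leaf and fell in the ear were HIT2 GRMZM2G126765 (6.99), mfsd1 GRMZM2G161310 (5.27), SGR1 GRMZM2G103881 (4.72), expB8 GRMZM2G013002 (4.35), the histone H4 gene GRMZM2G349651 (3.67), the CYCD3;2 homolog GRMZM2G107377 (3.66) and ivr1 GRMZM2G394450 (2.29). Those with the reverse pattern included the PSBQ homolog GRMZM5G804323 (-6.80), cab-m1 GRMZM2G351977 (-6.40), cab-m9 GRMZM2G155216 (-5.67), the PSAO homolog GRMZM2G001653 (-5.22), the ABAR homolog GRMZM2G323024 (-4.67), the PSB27 homolog GRMZM2G056424 (-3.86), the PSAF homolog GRMZM2G085646 (-3.46), DBP2 GRMZM2G055204 (-3.42), the ATPD homolog GRMZM2G401040 (-3.39), mdh6 GRMZM2G129513 (-3.19) and the homolog of the thylakoid ascorbate peroxidase gene TAPX GRMZM2G006791 (-3.03). CNR2 GRMZM2G151230 (-5.82) had 1 count in each control ear library. The second PSBQ homolog GRMZM2G058070 (-11.36) and the peroxidase gene homolog of RCI3 GRMZM2G450233 (-8.11) had 0 counts in both control ear libraries, so that their fitted values depend on the prior count and are no bounds; against a floor of 3 counts per library they were at least 29.4-fold and at least 5.69-fold higher in the drought ear.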

How the results depend on the processing

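The 3550 called differences were recomputed under each alternative. DESeq2 1.42.0 called 3294, of which 3182 were among the 3550, and limma-voom, other filters on low counts and a fit with all 12 libraries stayed within 1.5 times. On log2(FPKM + 0.1), limma called 2010 differences, 1139 larger in the ear leaf and 871 larger in the ear, the reverse of the balance in the counts, 29 up in the ear leaf and down in the ear, 59 the reverse, and 813 drought effects in the ear. On log2(FPKM + 1), 1829 were larger in the ear leaf and 1353 in the ear, the counts for opposite directions were 33 and 62, and for the ear 1239. A test against a difference of 1 called 1338 (560 larger in the ear leaf, 778 larger in the ear, 5 and 28 in opposite directions), with 2121 drought effects in the ear leaf and 613 in the ear. An adjusted p under 0.05 with no fold criterion called 9678 (4832 and 4846, with 1094 and 1119 in opposite directions), 11420 in the ear leaf and 9774 in the ear. With 1 library left out, calls ranged from 2556 to 3375, those larger in the ear leaf from 1124 to 1395, those larger in the ear from 1432 to 2076, those up in the ear leaf and down in the ear from 27 (without control ear replicate 2) to 45, the reverse from 74 to 116, drought calls in the ear leaf from 3486 to 4068, and those in the ear from 1281 to 1974. The causes were not tested. Of the 3550 genes, 1517 were called in the same direction in all 17 other fits.

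The replicate numbers did not pair the libraries. Within each group, log2 CPM of replicate 2 was subtracted from that of replicate 1, gene by gene. These replicate differences correlated between groups at -0.01 to 0.03. With a replicate block 3782 differences were called. Without control ear leaf replicate 2, sut1, hsp 17.2, AUX17, expa2, GRMZM2G053338, GRMZM2G080516, GRMZM2G068973 and GRMZM2G144648, none of them described above, lost their call. Genes near 0 in one organ were seldom called. Of the tested genes, 1255 had 3 or fewer counts in all ear libraries, and 8 of them were called. In all ear leaf libraries 1461 had so, and 0 were called (edgeR). Whether depth or absence of expression kept these counts low was not tested.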
